A study of Mus musculus with 6 samples.

Results

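Group 2 innate lymphoid cells (ILC2s) are kept in their lineage by a small circuit of transcription factors, and 10 of these were followed here in ILC2s sorted from the lungs of neonatal mice: Gata3, Rora, Bcl11b, Ets1, Gfi1, Id2, Nfil3, Maf, Runx1 and Runx3. They were taken by name from the 55394 genes listed for each library. Each name occurred once, with the mouse identifier that the annotation gives to it, so all 10 were found. The rule that picked them was by name and used no measured value, but the set was drawn up with earlier results of these data known. There were 6 libraries, each made from 1000 sorted cells of wild type pups of C57BL/6 dams, given as C57BL/6J in the methods. In 3 of them the dams had drunk an antibiotic cocktail of ampicillin, metronidazole, neomycin and vancomycin from gestation day 10 to 14 (Abx), and in the other 3 the dams were controls without antibiotics (Con). The cells were stained for CD45, CD90.2 and CD25 and for the absence of a lineage cocktail, which holds antibodies to CD3e, B220 and NK1.1 among others. The methods describe the GATA3 protein stain for fixed cells only. The methods state that both sexes were used. The postnatal day of these pups, the sex behind each library and the number of pups behind it are not given in the sources used here. Nothing says that the 3 libraries of a group came from separate litters, so the p-values measure only the spread between these libraries, which may be technical. The question put to the 10 genes was whether their mRNA level in neonatal lung ILC2s differed between pups of Abx and of Con dams.

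As background, the ILC2 lineage branches from lymphoid progenitors when ID2, a helix-loop-helix protein without a DNA-binding domain, ties up the E proteins that would otherwise favour B and T cell fates. NFIL3, a basic leucine zipper repressor under circadian control, acts early in innate lymphoid progenitors, and ETS1 and GFI1 are needed for the ILC2 precursor to expand. GATA3 and the nuclear receptor RORα then fix the ILC2 fate, BCL11B holds it against other innate lymphoid fates, GFI1 keeps type 2 genes on, and MAF, RUNX1 and RUNX3 adjust cytokine output in mature lymphocytes.

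The level of each gene was given as FPKM, fragments scaled to exon length and to the mapped reads of the library, so that levels of different genes can be set side by side per length. Total FPKM per library was 420941 to 489262, and the number of reads behind it is unknown. The Con libraries had 8574 to 9203 genes at 1 FPKM or more, the Abx libraries 7074 to 8193. Xist, the RNA of the inactive X chromosome, stood at 3.78 to 5.09 FPKM in Con, against 0 in each Abx library, so pup sex and exposure cannot be told apart in any comparison between the groups. Genes listed for other cell types, given after the 10 factors, also stood at other levels in Abx than in Con.

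The 10 genes spanned more than 2 orders of magnitude. Id2 had the highest level in 6 of 6 libraries and Nfil3 the next, also in 6 of 6. Id2 alone made up 61.7% to 81.0% of the summed FPKM of the 10 genes, and Id2 with Nfil3 80.6% to 90.6%. The sum was 1221 to 1624 FPKM, which is 0.272% to 0.375% of all FPKM in a library. By mean level Gata3, Rora and Ets1 came next, at 23.2 to 99.9 FPKM, and then Bcl11b, Gfi1, Maf, Runx1 and Runx3, which stayed under 15 FPKM except for Gfi1 in Abx library 1. There Gfi1 (24.1 FPKM) lay just above Ets1 (23.2 FPKM). Each of 8 genes reached 1 FPKM in all 6 libraries, whereas Gfi1 and Runx3 did so in 5.

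**Figure D1:**
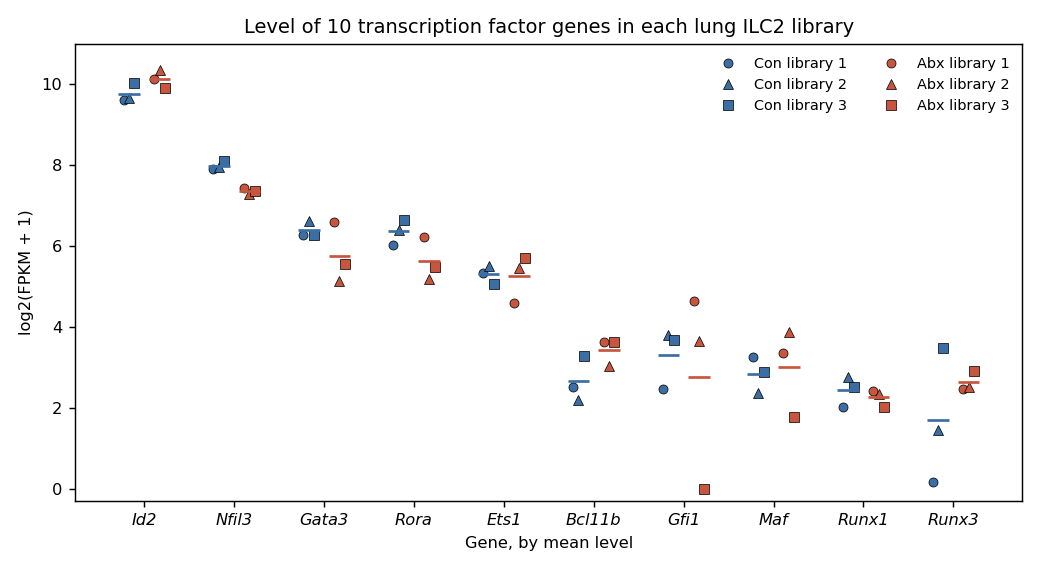
Level of the 10 genes as log2(FPKM + 1), ordered by mean level, with 1 point per library (Con blue, Abx red; circle, triangle and square are libraries 1, 2 and 3) and a bar at each group's mean. Id2 and Nfil3 stand above the rest in every library, Nfil3 is the gene whose red and blue points do not overlap, and Gfi1 is at 0 in Abx library 3.

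The order of levels was compared between neighbours with a two-sided exact sign-flip permutation test of the difference in log2(FPKM + 1) over the 6 libraries, whose smallest p is 0.03125. Among the 9 neighbouring pairs, 3 were ordered the same way in all 6 libraries. Id2 lay above Nfil3 by 2.28 ± 0.58 on the log2 scale (SD, n = 6; exact permutation p = 0.03125), Nfil3 above Gata3 by 1.60 ± 0.47 (SD, n = 6; exact permutation p = 0.03125) and Ets1 above Bcl11b by 2.23 ± 0.82 (SD, n = 6; exact permutation p = 0.03125). Adjusted over the 9 pairs each of these came to 0.09375, which is the lowest value that 3 pairs at the smallest p can reach. The order had been set on the same 6 libraries, so these p-values are no independent test of it. A p of 0.03125 in the sign-flip test says only that all 6 differences had the same sign. The 6 libraries also pool both groups. Id2 lay above Nfil3 by 1.78 ± 0.13 in Con alone, against 2.78 ± 0.27 in Abx alone (SD, n = 3 per group). In the other 6 pairs the order was not the same in all libraries. Gata3 exceeded Rora in 4 of 6 libraries, by a mean of 0.078 ± 0.27 (SD, n = 6; exact permutation p = 0.5), and Rora exceeded Ets1 in 4 of 6 (exact permutation p = 0.125). Within Bcl11b, Gfi1, Maf, Runx1 and Runx3 every pair of neighbours had an exact permutation p of 0.1875 or more, and the order of these 5 genes changed from library to library.

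For the comparison of Abx with Con, limma was fitted to log2(FPKM + 1) of the 8718 genes that reached 1 FPKM in 3 or more libraries, two-sided, with Benjamini-Hochberg adjustment over all of them. Calls needed more than a 2-fold change together with an adjusted p below 0.05. All 10 factors passed the filter, and 0 of 10 were called. Over all genes tested 0.0574% were called. At an unadjusted p under 0.05 there was 1 of the 10 factors, Nfil3, where the share over all genes was 11%. The groups did not overlap in 1 of the 10, again Nfil3, where the share over all genes was 17.2%. A count of 1 in 10 is near both of these shares and is no result about the factors. The fitted difference was above 0 for 4 factors and below 0 for 6, with a median of -0.11, beside -0.064 over all genes tested, and this median turned to 0.22 without Abx library 3. RNA was measured in bulk, so fewer cells of a type and less RNA per cell cannot be told apart.

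**Figure D2:**
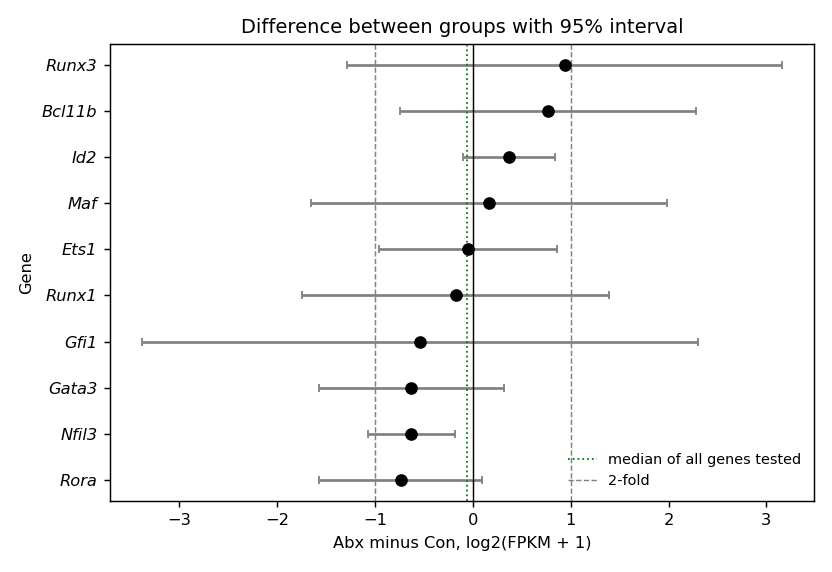
Fitted difference of Abx minus Con in log2(FPKM + 1) for the 10 genes, with the 95% interval from limma. Dashed lines mark 2-fold, and the dotted line is the median of all genes tested, at -0.064. The interval of Nfil3 runs from -1.07 to -0.18, and the other 9 intervals include 0.

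The precision of these differences depended on the gene. The 95% interval reached 0.444 to either side for Nfil3, the narrowest, and 2.84 for Gfi1, the widest. For 8 of the 10 genes it extended past a 2-fold difference in at least 1 direction. Id2 and Ets1 were the other 2, so for these a 2-fold difference lay outside the interval. For the other 8 it lay inside, and their missing calls do not show that the groups were alike.

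Nfil3 (ENSMUSG00000056749, chromosome 13, 52967209 to 52981073, minus strand, GRCm38) had the smallest p of the 10. Its level was 237, 248 and 276 FPKM in Con libraries 1, 2 and 3 and 171, 155 and 164 FPKM in Abx libraries 1, 2 and 3. Every Abx library lay below every Con library, and the spread within each group was small, with a coefficient of variation of 7.97% in Con, against 4.77% in Abx. The group means were 253.9 ± 20.2 FPKM in Con, against 163.7 ± 7.80 FPKM in Abx (SD, n = 3 per group), a ratio of 0.645. The fitted difference was -0.63 (standard error 0.19, limma adjusted p = 0.222), short of the call, and it ranked 461 of the 8718 genes by p. Beside the unadjusted limma p of 0.0117, the exact permutation test gave p = 0.1, the smallest that 3 libraries against 3 allow. Nfil3 stayed within the top of the expressed genes in both groups, above 94.5% to 97.5% of the genes tested.

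Id2 (ENSMUSG00000020644, chromosome 12, 25093799 to 25097140, minus strand), which sequesters E proteins, was at 782, 806 and 1053 FPKM in Con, against 1129, 1315 and 966 FPKM in Abx. Abx libraries 1 and 2 were above all Con libraries and Abx library 3 was within their range. The means were 880.4 ± 150.1 FPKM in Con, against 1137 ± 174.5 FPKM in Abx (SD, n = 3 per group), with a fitted difference of 0.37 (standard error 0.20, adjusted p = 0.575). Its 95% interval ran from -0.097 to 0.84. In every library Id2 was above at least 99.1% of the genes tested.

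Because Id2 means were higher and Nfil3 means lower in Abx, the ratio of the pair was taken within each library, after the values had been seen and therefore without a test. Id2 over Nfil3 was 3.30, 3.25 and 3.81 in Con, against 6.60, 8.46 and 5.88 in Abx. The groups did not overlap in this ratio. Nfil3 alone already separated them, and the pair was chosen because its genes moved opposite ways. The separation of the ratio was therefore largely given by that choice and is no further evidence of a difference. A ratio within a library does not depend on how the libraries were scaled.

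Gata3 (ENSMUSG00000015619, chromosome 2, 9857078 to 9890034, minus strand), the master regulator of type 2 lymphocytes, was at 76.2, 97.5 and 76.1 FPKM in Con, against 95.8, 33.9 and 46.1 FPKM in Abx. Abx libraries 2 and 3 lay below every Con library, whereas Abx library 1 sat at the top of the Con range. The means were 83.3 ± 12.3 FPKM in Con, against 58.6 ± 32.8 FPKM in Abx (SD, n = 3 per group), with a fitted difference of -0.63 (standard error 0.41, adjusted p = 0.654). Gata3 shares 77 exon bases with 9230102O04Rik on the same strand, which was at 1.40, 1.04 and 1.56 FPKM in Con, against 8.10, 0 and 0 FPKM in Abx, so it too was highest in Abx library 1. It also shares 155 bases with Gm13256 on the opposite strand, which did not exceed 0.52 FPKM. The part of shared reads in the Gata3 values was not tested.

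Rora (ENSMUSG00000032238, chromosome 9, 68653786 to 69388246, plus strand), which encodes RORα, was at 64.8, 83.2 and 99.9 FPKM in Con, against 73.9, 35.1 and 43.5 FPKM in Abx. The pattern over the Abx libraries was that of Gata3, with libraries 2 and 3 below all of Con and library 1 inside the Con range. The means were 82.6 ± 17.6 and 50.9 ± 20.4 FPKM (SD, n = 3 per group), with a fitted difference of -0.74 (standard error 0.36, adjusted p = 0.517). Without Abx library 1 the fitted difference was -1.05 for Gata3 (limma adjusted p = 0.253) and -1.04 for Rora (limma adjusted p = 0.267). With Nfil3, 3 of the 10 factors then had an unadjusted p under 0.05, where the share over all genes in that fit was 12.6%, and 0 were called. This is the library that had been seen to stand apart, and leaving it out gave the largest differences. With each library left out in turn, Gata3 ranged from -1.05 to -0.31 and Rora from -1.04 to -0.51. Both were smallest in size without Abx library 2. In every other such fit only 1 of the 10 factors had an unadjusted p under 0.05.

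Gata3 and Rora were then set against each other within each library. Gata3 over Rora was 1.18, 1.17 and 0.761 in Con, against 1.29, 0.965 and 1.06 in Abx, a spread of 1.70-fold over the 6 libraries. Within Abx the ratio spread less than Gata3 itself, which spread 2.82-fold, while within Con it spread more than the 1.28-fold of Gata3. This ratio was chosen after the values had been seen.

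**Figure D3:**
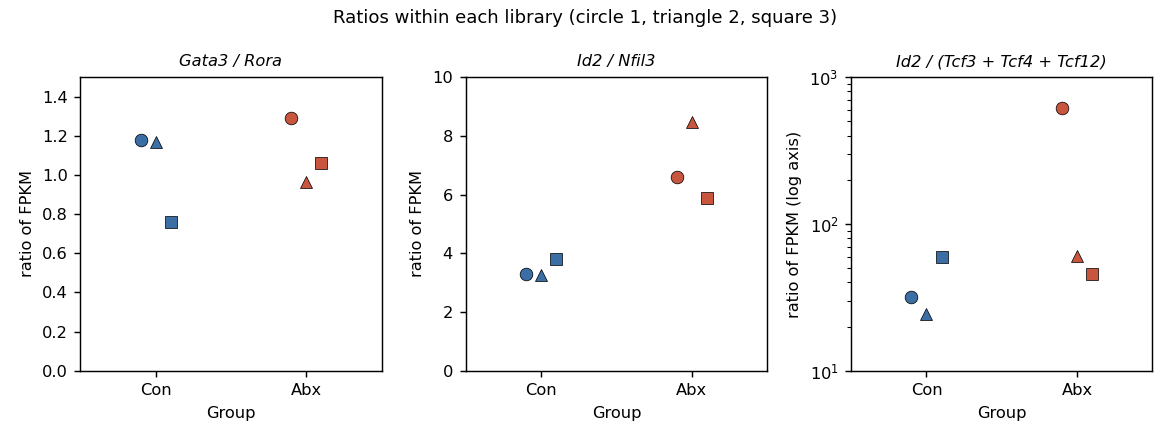
Ratio of FPKM within each library for Gata3 over Rora, Id2 over Nfil3 and Id2 over the summed E protein genes Tcf3, Tcf4 and Tcf12, with linear axes for the first pair of panels and a log axis for the E proteins, and 1 point per library. Gata3 over Rora stays between 0.761 and 1.29, Id2 over Nfil3 is 3.25 to 3.81 in Con, against 5.88 to 8.46 in Abx, and Id2 over the E proteins is highest in Abx library 1, at 617.

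Ets1 (ENSMUSG00000032035, chromosome 9, 32636221 to 32757820, plus strand), which acts in the ILC2 precursor, was at 39.6, 44.3 and 32.3 FPKM in Con, against 23.2, 42.7 and 51.3 FPKM in Abx. Abx library 1 was the lowest and Abx library 3 the highest of all 6, so the Abx values enclosed those of Con. The fitted difference was -0.050 (standard error 0.39, adjusted p = 0.979), with a 95% interval from -0.96 to 0.86.

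Bcl11b (ENSMUSG00000048251, chromosome 12, 107910403 to 108003602, minus strand), which guards ILC2 identity, was at 4.67, 3.55 and 8.77 FPKM in Con, against 11.3, 7.25 and 11.3 FPKM in Abx. Abx libraries 1 and 3 were above all Con libraries and Abx library 2 was within the Con range. The means were 5.66 ± 2.75 and 9.94 ± 2.33 FPKM (SD, n = 3 per group), a ratio of 1.76, with a fitted difference of 0.77 (standard error 0.65, adjusted p = 0.735). Bcl11b is also a T cell factor. The summed level of a T cell list was higher in every Abx library (2730 to 3077 FPKM) than in any Con library (1359 to 1550 FPKM). Trbc2 and Trbc1 led that sum. The part of T cell RNA in the Bcl11b values was not tested.

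Gfi1 (ENSMUSG00000029275, chromosome 5, 107716657 to 107726036, minus strand), a zinc finger repressor, was the least regular of the 10. It was at 4.52, 12.8 and 11.7 FPKM in Con, against 24.1, 11.6 and 0 FPKM in Abx. The highest and the lowest of the 6 values were both in Abx, and the difference of -0.54 (standard error 1.22, adjusted p = 0.907) turned to 0.85 without Abx library 3. It was -1.55 with a pseudocount of 0.1 and -2.64 with 0.01. A value listed at 0 can be a failed estimate, and here it stands beside 24.1 FPKM in another library of the same group. The exons of Gfi1 share 101 bases with A430072P03Rik on the opposite strand, whose values were 3.64, 0.36 and 1.59 FPKM in Con, against 6.35, 9.57 and 0 FPKM in Abx. The sources used here do not state counting by strand, so reads over those 101 bases cannot be told apart, and both genes were listed at 0 in Abx library 3. Among the other factors with an overlapping gene, the partner of Rora, Gm15511, did not exceed 2.04 FPKM, and those of Maf and Runx1 were listed at 0.

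Maf (ENSMUSG00000055435, chromosome 8, 115682942 to 115707794, minus strand), a leucine zipper factor of cytokine-producing lymphocytes, was at 8.58, 4.16 and 6.41 FPKM in Con, against 9.27, 13.6 and 2.44 FPKM in Abx. Abx again enclosed Con, and the difference of 0.16 (standard error 0.78, adjusted p = 0.962) changed sign in 3 of the 6 fits that left out 1 library, those without Con library 2 (-0.072), Abx library 1 (-0.014) and Abx library 2 (-0.27).

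Runx1 (ENSMUSG00000022952, chromosome 16, 92601466 to 92826149, minus strand) was at 3.08, 5.75 and 4.75 FPKM in Con, against 4.36, 4.09 and 3.05 FPKM in Abx, with a difference of -0.17 (standard error 0.67, adjusted p = 0.948) that turned to 0.064 under quantile normalization. The 2 groups overlapped, with Abx library 3 just under the lowest Con library. Runx3 (ENSMUSG00000070691, chromosome 4, 135120652 to 135177990, plus strand) was at 0.12, 1.73 and 10.1 FPKM in Con, against 4.52, 4.76 and 6.58 FPKM in Abx. The Con libraries enclosed those of Abx, and the difference of 0.94 (standard error 0.96, adjusted p = 0.783) ranged from 0.17 without Con library 1 to 1.83 without Con library 3. With a pseudocount of 0.1 it was 1.73, and with 0.01 it was 1.98. Both proteins bind DNA as partners of CBFβ and can act at the same sites. Their sum was 3.20, 7.48 and 14.9 FPKM in Con, against 8.88, 8.85 and 9.63 FPKM in Abx, within the Con range in every Abx library.

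The spread within groups did not go one way. On the log2 scale 5 of the 10 genes had the larger SD in Abx, where this held for 70.3% of all genes tested. Gata3, Rora, Ets1, Gfi1 and Maf varied more in Abx, and Bcl11b, Id2, Nfil3, Runx1 and Runx3 varied more in Con.

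Binding motifs of some of the circuit's own members were looked up in the promoter windows. Several of the 10 factors are known to act on each other's genes. No motif of GFI1, MAF or BCL11B was searched. RefSeq (GRCm38.p6) gave 11 windows for 8 of the genes, with none for Ets1 and Maf, and the 250 bases before each start were searched on both strands. AGATAA, the only form of the GATA motif that was searched, was in 0 of the 11 windows and in 9.99% of all 32851 windows. Its absence does not show that the windows hold no other form of a GATA site. TGTGGT, the RUNX motif, was in 1 window and in 14.0% of all. AGGTCA, the core of the ROR motif, searched without its flanking bases, was in 1 and in 14.0% of all. CCGGAA, the ETS motif, was in 2 and in 12%, and TTACGTAA, the NFIL3 motif, in 0 and in 0.113%. The 4 windows with a match are printed 5′ to 3′ on the gene's strand, with the match in capitals, to show where in the window it lies. A match on the opposite strand appears as its reverse complement. They are Nfil3 (chr13:52981040-52981289, minus strand, core of the ROR motif), Gata3 (chr2:9878601-9878850, minus strand, ETS motif), Runx3 (chr4:135120395-135120644, plus strand, RUNX motif at 2 places) and Runx1 (chr16:92697330-92697579, minus strand, ETS motif).
Nfil3: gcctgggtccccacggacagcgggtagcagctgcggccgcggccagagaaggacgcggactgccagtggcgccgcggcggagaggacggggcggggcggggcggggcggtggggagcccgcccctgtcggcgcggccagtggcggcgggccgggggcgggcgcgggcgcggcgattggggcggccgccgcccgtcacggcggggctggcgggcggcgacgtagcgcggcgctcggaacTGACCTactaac
Gata3: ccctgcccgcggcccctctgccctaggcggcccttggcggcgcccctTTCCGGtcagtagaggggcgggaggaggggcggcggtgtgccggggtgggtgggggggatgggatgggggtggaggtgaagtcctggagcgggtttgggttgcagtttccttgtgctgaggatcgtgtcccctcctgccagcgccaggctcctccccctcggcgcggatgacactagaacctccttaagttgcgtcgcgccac
Runx3: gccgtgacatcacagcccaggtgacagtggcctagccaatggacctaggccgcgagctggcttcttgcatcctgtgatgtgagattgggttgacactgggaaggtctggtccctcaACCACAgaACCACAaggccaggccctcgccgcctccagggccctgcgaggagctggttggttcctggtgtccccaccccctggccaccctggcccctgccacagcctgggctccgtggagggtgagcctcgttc
Runx1: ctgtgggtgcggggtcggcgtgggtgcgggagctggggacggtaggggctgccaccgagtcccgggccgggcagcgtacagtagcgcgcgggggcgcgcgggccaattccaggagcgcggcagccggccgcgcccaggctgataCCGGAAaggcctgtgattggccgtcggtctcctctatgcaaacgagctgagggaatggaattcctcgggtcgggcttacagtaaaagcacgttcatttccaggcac

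In Nfil3 the match to the ROR core began 12 bases before the start and read on the strand opposite to the gene. The RUNX matches in Runx3 began 134 and 126 bases before its start, also on the opposite strand. In Gata3 the ETS match began 203 bases before the start on the opposite strand, and in Runx1 106 bases before it on the gene's own strand. The distances are from the RefSeq start. By the wider GENCODE spans given above, the Nfil3 match and the whole Gata3 and Runx1 windows lie inside the gene. These are matches of letters, and binding was not measured in these libraries.

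Proteins that pair with the 10 factors were read from a list of 19 genes, of which 15 were tested. Of these, 0 were called, 5 had a difference above 0 and 10 below 0, and the median was -0.35. Only Tcf12 had an unadjusted p under 0.05, which is 1 of 15, where the share over all genes was 11%. Tcf12 (HEB), an E protein bound by ID2, was at 4.03, 4.89 and 2.28 FPKM in Con, against 0.51, 1.43 and 0.23 FPKM in Abx. All its Abx values lay below Con, and its difference was -1.48 (standard error 0.59, limma adjusted p = 0.398). Tcf3 (E2A), the most abundant E protein gene here, was at 19.9, 28.1 and 15.4 FPKM in Con, against 0.21, 18.8 and 19.3 FPKM in Abx, so that Abx library 1 alone stood apart (difference -1.45, standard error 1.10, adjusted p = 0.707). Tcf4 (E2-2) was at 0.06 to 0.66 FPKM in Con, against 1.11 to 1.56 FPKM in Abx (difference 0.90, standard error 0.39, adjusted p = 0.455). Summed, the 3 E protein genes were at 24.6, 33.1 and 17.7 FPKM in Con, against 1.83, 21.6 and 21.1 FPKM in Abx. Id2 exceeded this sum in every library, by 24.3-fold to 617-fold.

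Cbfb, the partner of the RUNX proteins, was at 22.1, 43.1 and 42.0 FPKM in Con, against 66.7, 13.9 and 31.1 FPKM in Abx (difference -0.14, standard error 0.59, adjusted p = 0.952), above the sum of Runx1, Runx2 and Runx3 in all 6 libraries by 1.53-fold to 6.47-fold. Hdac2, a deacetylase of repressor complexes that GFI1 and BCL11B recruit, was at 13.6 to 32.8 FPKM in Con, against 21.7 to 64.0 FPKM in Abx (difference 0.70, adjusted p = 0.706). Tle4, a Groucho corepressor of RUNX proteins, was at 7.88 to 8.67 FPKM in Con, against 13.9, 1.65 and 0 FPKM in Abx (difference -1.46, adjusted p = 0.694). NFIL3 competes for its DNA sites with the PAR leucine zipper proteins of Dbp, Tef and Hlf. Their sum was 12.5, 20.1 and 13.2 FPKM in Con, against 14.4, 14.5 and 1.32 FPKM in Abx, with Nfil3 above it by at least 10.7-fold in each library.

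The relatives of the 10 factors were mostly low. Of 17 listed, 9 were tested and 0 were called. At an unadjusted p under 0.05 there were 0 of the 9, where the share over all genes was 11%. There were 4 differences above and 5 below 0, with a median of -0.075. Gfi1b and Gata6 were listed at 0 throughout, and Bcl11a, the B cell relative of Bcl11b, did not exceed 0.03 FPKM. Gata1, the erythroid GATA factor, was at 7.30 FPKM in Con library 3 and listed at 0 elsewhere. Gata2, the GATA factor of mast cells and basophils, was at 0.07, 0 and 7.79 FPKM in Con, against 0.39, 18.6 and 245 FPKM in Abx (difference 3.16, standard error 1.85, adjusted p = 0.612). In Abx library 3 it exceeded Gata3, which was at 46.1 FPKM. Of other genes of mast cells and basophils, Mcpt8 was at 1.56 FPKM in that library and at 21.8 to 36.9 FPKM in Con, and Cpa3 was at 293 FPKM there and at 287 to 396 FPKM in Con.

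Id1 and Id3, inhibitors of E proteins like Id2, were far below it. Id1 was at 9.43, 6.77 and 0.05 FPKM in Con, against 20.7, 12.4 and 16.4 FPKM in Abx, with no overlap (difference 1.97, standard error 0.96, adjusted p = 0.520). Id3 was at 0, 5.84 and 6.41 FPKM in Con, against 34.3, 0.04 and 21.7 FPKM in Abx (difference 1.35, adjusted p = 0.808). Maff, a small MAF protein, was at 1.9 to 7.54 FPKM in Con, against 0.49 to 1.54 FPKM in Abx, also with no overlap (difference -1.48, standard error 0.70, adjusted p = 0.499). Id1 and Maff were the 2 of 9 tested relatives without overlap, where the share over all genes was 17.2%. Ets2 was at 4.90 to 11.7 FPKM in Con, against 1.72, 0.05 and 11.9 FPKM in Abx (difference -1.55, adjusted p = 0.666), and Runx2 stayed under 5 FPKM in all libraries, at 0.21 to 2.67 FPKM in Con, against 0.13 to 4.08 FPKM in Abx.

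Among 21 other transcription factors of innate lymphoid cells, 13 were tested and 0 called, with 6 differences above and 7 below 0 and a median of -0.25. At an unadjusted p under 0.05, 1 was above and 2 below, where the share over all genes was 11%. Tcf7 (TCF-1), needed in early ILC progenitors and T cells, was listed at 0 in all Con libraries and at 19.4 to 29.4 FPKM in Abx (limma adjusted p = 0.0911). Stat5a, which carries signals of IL-2 and IL-7, was at 5.34, 4.53 and 1.55 FPKM in Con, against 0.62, 0 and 0.06 FPKM in Abx (difference -1.9, standard error 0.57, adjusted p = 0.212), while its close relative Stat5b was at 5.37 to 13.9 FPKM in Con, against 7.20 to 14.0 FPKM in Abx (difference 0.15, adjusted p = 0.952). The name Stat5a was listed at 2 identifiers, and these values are of the 1 to which the annotation gives it. Bhlhe40 was the most abundant of this list, at 351, 463 and 504 FPKM in Con, against 389, 205 and 231 FPKM in Abx. Like Gata3 and Rora it was lower than all of Con in Abx libraries 2 and 3 and not in library 1 (difference -0.72, standard error 0.29, adjusted p = 0.404). Pparg, a nuclear receptor of lung ILC2s, was at 54.8 to 82.5 FPKM in Con, against 2.86, 81.8 and 22.7 FPKM in Abx (difference -1.74, adjusted p = 0.594). Tbx21, the ILC1 factor T-bet, was listed at 0 in all 6 libraries, and Eomes did not exceed 0.01 FPKM.

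**Figure D4:**
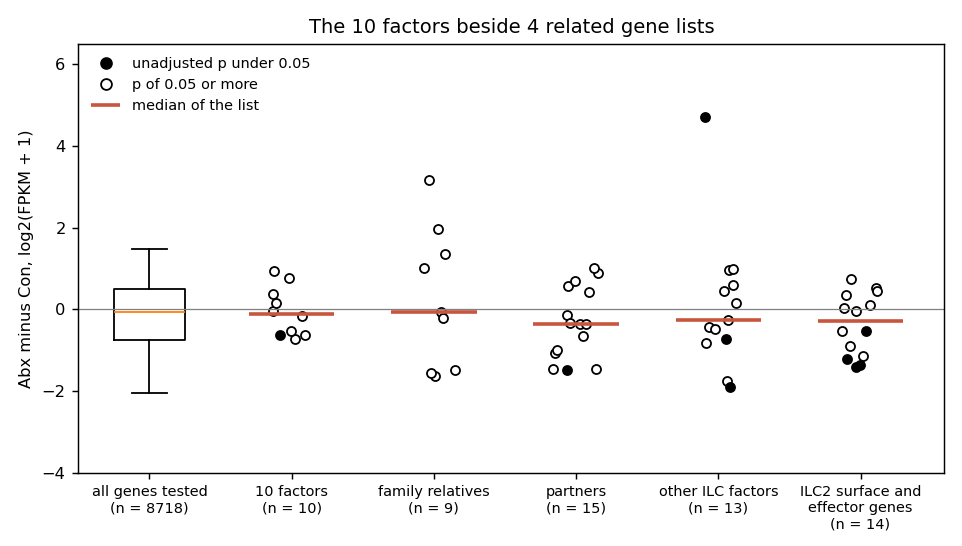
Fitted difference of Abx minus Con in log2(FPKM + 1) for the 10 factors and the tested genes of 4 related lists, 1 point per gene, filled where the unadjusted p was under 0.05, with the median of each list as a bar. The box shows all 8718 genes tested, with its quartiles and whiskers at percentiles 5 and 95. The list medians lie between -0.35 and -0.075, beside -0.064 for all genes, and the highest point is Tcf7.

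The surface and effector genes that mark ILC2s, several of them targets of GATA3 and RORα, were used to check the label of the cells. Of 18 listed, 17 were at 1 FPKM or more in at least 1 library. Il2rg, Klrg1, Arg1, Areg, Csf2 and Icos were abundant in all 6. Il1rl1, the IL-33 receptor, was the exception among defining markers, at 0.06, 0.89 and 2.94 FPKM in Con, against 0.03 FPKM or less in Abx, and Ptgdr2 (CRTH2) was listed at 0 throughout. Il5 and Il13, the signature cytokine genes of ILC2s, were listed at 0 in Con and in Abx library 1, so neither passed the filter. In Abx libraries 2 and 3 Il5 was at 57.7 and 24.5 FPKM and Il13 at 10.8 and 10.1 FPKM. Of the 14 tested 0 were called, 6 had differences above and 8 below 0, and the median was -0.29. At an unadjusted p under 0.05, 4 were below 0 and 0 above. Over all 8718 genes tested the share at that p was 11%, with 545 genes below 0 and 413 above. The 4 ILC2 genes below 0 were Icos (difference -1.37, limma adjusted p = 0.0911), Areg, which encodes the repair factor amphiregulin (-1.40, adjusted p = 0.0911), Csf2, which encodes GM-CSF (-1.21, adjusted p = 0.0911), and Arg1 (-0.54, adjusted p = 0.330). In all 4 every Abx library was below every Con library, as in Nfil3. Ptprc did not overlap either, but it was higher in Abx (difference 0.75, limma adjusted p = 0.542). Thus 5 of the 14 did not overlap, where the share over all genes was 17.2%.

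Genes listed for other cell types were present. For lists of T cells, B cells and NK cells the summed level did not overlap between the groups, although 0 of their genes were called. Whether this RNA came from such cells or from the ILC2s was not tested. The 13 genes of a T cell list summed to 1359 to 1550 FPKM in Con, against 2730 to 3077 FPKM in Abx, with differences above 0 in 8 of 9 tested genes. Of its defining genes, Cd4 was listed at 0 in 5 of 6 libraries and Cd8a did not exceed 3.25 FPKM, while Cd8b1 was at 4.62, 10.2 and 0 FPKM in Con, against 27.1, 52.2 and 36.4 FPKM in Abx. Cd3d was at 4.46 to 8.32 FPKM in Con, against 37.2 to 108.0 FPKM in Abx (difference 3.18, limma adjusted p = 0.0911), and Cd3g was at 93.3 to 124 FPKM in Con, against 140.1 to 196 FPKM in Abx. Among the tested genes of this list only Trac had a difference below 0 (-0.19), and its groups overlapped. Trac was at 11.67, 3.01 and 10.82 FPKM in Con, against 21.18, 14.05 and 0.22 FPKM in Abx. The 12 genes of a B cell list summed to 542 to 743 FPKM in Con, against 1178 to 1476 FPKM in Abx, with differences above 0 in 9 of 10 tested genes. The largest parts were Ighm (109 to 159 FPKM in Con, against 358 to 429 FPKM in Abx), Igkc (127 to 218, against 261 to 365 FPKM) and Cd74 (160 to 226, against 321 to 525 FPKM). Cd79b went the other way without overlap, at 69.5 to 117 FPKM in Con, against 31.0 to 57.4 FPKM in Abx (difference -0.82, limma adjusted p = 0.472). The B cell factor gene Ebf1 did not exceed 0.09 FPKM, and Pax5 reached 2.33 FPKM in 1 Abx library. The 10 genes of NK cells and ILC1s summed to 14.9 to 82.9 FPKM in Con, against 288 to 431 FPKM in Abx. Most of the Abx sum was Gzma and Nkg7, while Klrb1c, Prf1, Klra8 and Tbx21 were listed at 0. Of the 3 genes tested, 2 had differences above 0 and 1, Gzmb, below 0 (-1.79, limma adjusted p = 0.690). Ncr1 (7.9, 0 and 0 FPKM in Con) and Klrk1 (1.67, 5.28 and 0 FPKM in Con) were listed at 0 in every Abx library. Most of the 10 factors are also expressed by T cells or NK cells, and the part of such RNA in their values was not tested.

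Red cell genes summed to 6422 to 14820 FPKM in Con, against 3166 to 8659 FPKM in Abx, led by the haemoglobin gene Hba-a2 at 3363 to 8270 and 1707 to 4685 FPKM. The 14 myeloid genes summed to 244 to 449 FPKM in Con, against 273 to 574 FPKM in Abx, with Itgam at 0.07 FPKM or less. Those of mast cells and basophils summed to 343 to 426 FPKM in Con, against 185 to 540.4 FPKM in Abx, Gata2 included. Epithelial genes summed to 42.7 to 1166 FPKM in Con, the highest in library 1 where Scgb1a1 was at 1109 FPKM, and to 55.8 to 142 FPKM in Abx, with Cdh1, Sftpb and Nkx2-1 listed at 0. Endothelial and fibroblast genes summed to at most 21.1 and 4.68 FPKM in any library, with Pecam1 at 4.98 to 20.8 FPKM and Col1a1 at 0.55 FPKM or less. The part of RNA from these cells in the values of the 10 factors was not tested.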

How the data were processed

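SMART-seq libraries of lung ILC2s, 3 Con and 3 Abx as labelled by GEO, were analysed. The authors trimmed reads with Cutadapt, mapped them with HISAT2, assembled them with StringTie and deposited FPKM per gene, 1 file per library. The methods name a human annotation, and the submitters' processing notes list Bowtie 0.12.2, but the identifiers are mouse, and 55134 of the 55394 are in GENCODE M21 (GRCm38), from which coordinates were taken. The authors used DESeq2, which needs read counts, so it was not repeated here. The depth is unknown and no counting error is given.

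FPKM were used as deposited. limma 3.58.1 (R 4.3.3; lmFit, eBayes with trend) was fitted to log2(FPKM + 1) of genes at 1 FPKM or more in at least 3 libraries, which understates the change of low genes. The thresholds were those of the methods. Exact permutation tests, promoter searches and tables used Python 3.11.15 with scipy 1.17.1, pandas 2.3.3 and numpy 2.4.6. The fit was tested on simulated data with known changes. The members, lists and tests were chosen with earlier results of these data known, and the motifs and ratios after the values had been seen. Genes were named by rule: all 10 members, 13 partners and relatives whatever their values, the 4 genes with the smallest p in each related list, and 1 or 2 markers of each other cell type. Further genes, such as Stat5b, Cd8b1, Cd3d, Trbc1, Trbc2, Trac, Cd79b, Gzmb, Ncr1, Klrk1, Ptprc, Il1rl1, Il5, Il13 and Gata6, were named after their values were seen. 1 of the relatives named by the rule is not reported here.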

Additional observations from a re-analysis of the deposited data

How the results depend on the processing

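No factor was called in any of the 148 alternative values, each from a change of 1 choice for 1 gene, where the lowest adjusted p was 0.182, for Nfil3. In 141 of them the direction stayed, and in 7 it turned. These were Runx1 under quantile normalization (0.064), Ets1 without Con replicate 2 (0.050) and without Abx replicate 1, Maf without Con replicate 2 (-0.072), Abx replicate 1 (-0.014) and Abx replicate 2, and Gfi1 without Abx replicate 3. With each library left out, Ets1 ranged from -0.28 to 0.28, Maf from -0.27 to 0.77 and Gfi1 from -1.48 to 0.85. Pseudocounts of 0.1 and 0.01 moved Gfi1 to -1.55 and -2.64 and Runx3 to 1.73 and 1.98. With the unadjusted p and no limit on the fold change, 1 factor passed in place of 0 and 958 genes in place of 5. The count of 5 genes was 0 with a pseudocount of 0.1 or 0.01, without the filter, with median centring or with the replicate block, 3 after rescaling each library to 1 fixed sum, 7 with quantile normalization or a mean of at least 5 FPKM, and 0 to 2 with each library left out. The median of the factors was -0.24 to 0.22 with each library left out, and -0.29 with a mean of at least 5 FPKM, where Runx1 and Runx3 dropped out. Rescaling moved the median of all genes from -0.064 to -0.18 and that of the factors to -0.20. Replicate numbers did not pair the libraries (correlation of same-numbered deviations across genes -0.020, -0.029 and 0.0097), and with the replicate block 0 factors were called and their median stayed at -0.11. Gfi1 lay below its neighbour Maf with a pseudocount of 0.1 (-0.33) or 0.01 (-0.87), and in the Abx libraries alone (-0.23). Neighbours also stood the other way in Bcl11b over Gfi1 in the Con libraries alone (-0.65) and in Runx1 over Runx3 in the Abx libraries alone (-0.38). The cause of these changes was not tested.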
